A study of Homo sapiens with 6 samples.

Results

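Described here are MYCT1, HTN1, TMEM156, EVI2B, SLAMF7 and AADAC, 6 of 14884 genes tested. Most of the 6 are best known from tissues other than bone. The transcripts of all 6 were more abundant in cells with S22A-progerin. They were chosen by name from an earlier reading of these same 6 arrays, for their higher values in S22A-progerin. Their differences between the groups are therefore a description and carry no test. The cells were U-2 OS, a human osteosarcoma line, infected with a retrovirus that expressed S22A-progerin on 3 arrays and wt-progerin on 3 arrays. Progerin is the truncated lamin A of Hutchinson-Gilford progeria, and in S22A-progerin the serine at position 22, which is phosphorylated when the lamina is taken apart in mitosis, is an alanine. All cells of both groups had gone through selection for 3 days in 5 µg/ml puromycin, and RNA was taken 4 days after infection. Arrays of cells without progerin were not analysed here, and which group differs from the parent line cannot be read from these values. The labels describe the replicates as independent, and a p-value reflects only how far these arrays vary.

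The 6 genes were not chosen for a common pathway. Apart from TMEM156, each is best known from certain tissues or cells, which differ from gene to gene. MYCT1, a target gene of MYC, is expressed in endothelium and in blood-forming stem cells. HTN1 encodes histatin 1, an antimicrobial and wound-closing peptide of saliva, and lies among genes for secreted phosphoproteins of saliva, milk and teeth. EVI2B encodes a surface glycoprotein of blood cells and lies with EVI2A and OMG inside an intron of NF1. SLAMF7 encodes a SLAM family receptor carried by natural killer and plasma cells, whose genes sit side by side. AADAC encodes arylacetamide deacetylase, an esterase of the endoplasmic reticulum in liver and intestine that hydrolyses drugs. TMEM156 encodes a membrane protein of little known function. Whether these genes are silent in a line of bone origin was not tested.

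The 250 bases before the transcription start were available for MYCT1, HTN1, TMEM156 and AADAC, 4 of the 6 genes, from RefSeq on GRCh38.p14. HTN1 and TMEM156 are shown because both held a match to the AP-1 motif, MYCT1 because it held a TATA motif, and HTN3, the neighbouring histatin gene, to show how close it is to HTN1. The stretches are chr4:70050188-70050437 (plus strand) for HTN1, chr4:70028209-70028458 (plus strand) for HTN3, chr4:39032410-39032659 (minus strand) for TMEM156 and chr6:152697696-152697945 (plus strand) for MYCT1. Capitals mark motif matches on either strand.
HTN1: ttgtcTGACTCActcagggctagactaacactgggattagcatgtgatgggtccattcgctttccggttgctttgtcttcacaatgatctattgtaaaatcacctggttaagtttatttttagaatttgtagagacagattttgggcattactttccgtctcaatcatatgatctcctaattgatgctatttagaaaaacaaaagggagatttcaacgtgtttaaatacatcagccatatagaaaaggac
HTN3: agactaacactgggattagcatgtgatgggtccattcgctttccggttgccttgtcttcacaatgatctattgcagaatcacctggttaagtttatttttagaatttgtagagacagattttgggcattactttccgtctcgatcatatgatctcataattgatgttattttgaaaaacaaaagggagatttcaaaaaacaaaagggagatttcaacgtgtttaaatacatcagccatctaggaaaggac
TMEM156: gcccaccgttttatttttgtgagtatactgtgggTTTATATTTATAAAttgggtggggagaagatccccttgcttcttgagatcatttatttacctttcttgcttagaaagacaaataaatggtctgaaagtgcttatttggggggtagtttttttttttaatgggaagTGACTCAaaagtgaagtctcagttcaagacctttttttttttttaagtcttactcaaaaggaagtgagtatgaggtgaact
MYCT1: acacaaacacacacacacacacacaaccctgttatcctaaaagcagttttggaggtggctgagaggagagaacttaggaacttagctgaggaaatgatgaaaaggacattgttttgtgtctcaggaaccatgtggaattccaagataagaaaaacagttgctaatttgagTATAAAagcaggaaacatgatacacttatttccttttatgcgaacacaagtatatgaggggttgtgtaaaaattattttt

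Motifs searched on both strands were AP-1 (TGANTCA), the E-box (CACGTG), the C/EBP motif (TTGCNNCAA), the NF-kB motif by its consensus, and the TATA motif (TATAAA). The AP-1 motif began 245 bases before the start of HTN1 and 81 bases before that of TMEM156, and 6.6% of 35116 promoters of this length held one. TATAAA, held by 10.7% of all, began 80 bases before the start of MYCT1, and 3 matches lay in TMEM156, the last 2 of which overlapped. No match to any of the 5 motifs was found in the AADAC window, and the NF-kB (10.0% of all), C/EBP (1.6%) and E-box (6.3%) motifs matched in none of the 4. These shares are over all promoters and were not matched for G and C content, in which the 4 windows were poor. They are therefore not the rates for windows like these, and neither a match nor its absence can be weighed against them. A match is a string of letters, not a measured binding site. The aligned bases of the HTN1 and HTN3 windows were identical at 220 positions and differed at 9, or 96.1% identity outside gaps. With the 42 gap positions counted, identity was 81.2%. The HTN1 stretch with the AP-1 match had no counterpart inside the HTN3 window, so HTN3 could not be read for it. The 4 promoters were poor in G and C, at 34.8% to 36.8%. Over the 10749 tested genes with a promoter the median was 62.8%, and over the 2185 of those with the lowest wt-progerin levels, out of 3721 such genes, it was 51.2%. A content of 36.8% or less, the highest of the 4 and so met by all of them, was found in 3.3% of tested genes and in 11.4% of those 2185. Of the 23 other genes at least 4-fold higher, 14 had a promoter. Their median was 47.2%, and 14.3% of them had 36.8% or less.

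The arrays correlated at 0.994 to 0.9962 within S22A-progerin, 0.9961 to 0.9965 within wt-progerin and 0.9832 to 0.9852 between the groups, across genes, which are not independent replicates. Within S22A-progerin, replicate 3 correlated less with replicates 1 and 2 (0.9945 and 0.994) than those did with each other (0.9962). Some values without replicate 3 are given below. LMNA, which encodes lamin A and, from the vector, progerin, had 8.31, 8.26 and 8.29 in S22A-progerin, against 8.17, 8.15 and 8.10 in wt-progerin, and did not pass (limma adjusted p = 0.0796). This reading does not check the S22A change. Of the 14 osteoblast and mesenchymal genes looked for, 8 were measured. FN1 (percentile 99.5 in S22A-progerin and 99.8 in wt-progerin), VIM (97.0 and 96.9), RUNX2 (66.7 and 77.4), SPP1 (72.1 and 51.6) and THY1 (61.9 and 66.8) lay above the middle of the genes. Below it lay S100A6 (46.0 and 39.5), SP7, an osteoblast transcription factor gene (32.1 and 33.3), and IBSP, a late bone matrix gene, at percentile 4.91 in S22A-progerin and 4.83 in wt-progerin.

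All 6 genes were read higher on each S22A-progerin array than on any wt-progerin array. Over all genes tested, 18.5% had groups that did not overlap with S22A-progerin higher, and 25.4% passed at a limma adjusted p under 0.05, 10.8% as higher and 14.6% as lower. At least 2-fold higher were 1.03% of genes and at least 4-fold higher 0.188%. All 6 were at least 2-fold and 5 at least 4-fold higher, which is what they were chosen for. Their median difference was 2.51 on the log2 scale, S22A-progerin minus wt-progerin, against a median close to 0 (-0.00367) over all genes. Values are log2 expression values, so a difference of 1 is 2-fold.

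**Figure D1:**
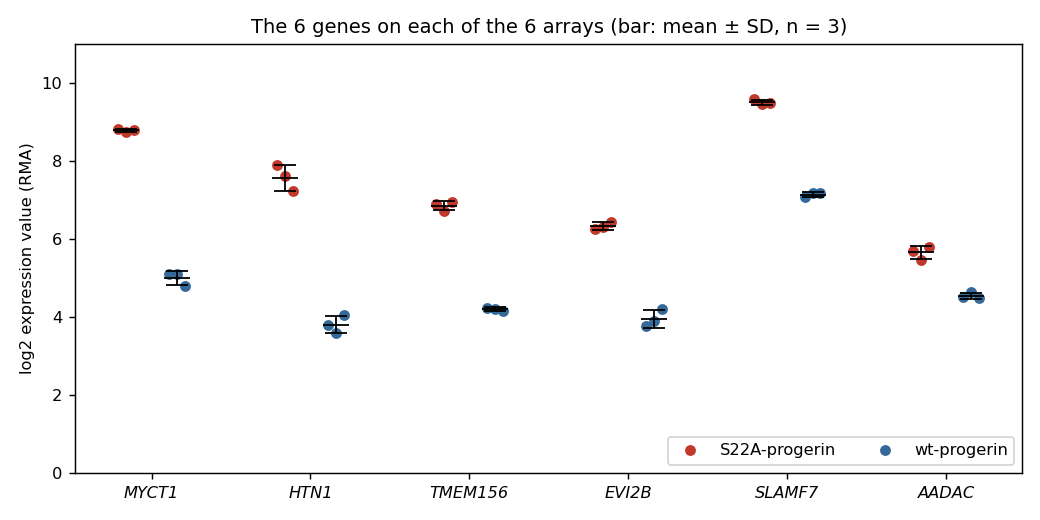
Log2 expression value of each gene on each array, with S22A-progerin (red) left of wt-progerin (blue); bars show the mean ± SD of 3 arrays. The groups are apart in all 6 genes, by the widest gap in MYCT1 (3.64) and the narrowest in AADAC (0.844).

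MYCT1 had values of 8.83, 8.75 and 8.79 in S22A-progerin, against 5.10, 5.11 and 4.79 in wt-progerin. The lowest S22A-progerin array was 3.64 above the highest wt-progerin array, and the 3 S22A-progerin arrays lay within 0.073 of each other. The means were 8.79 ± 0.037 and 5.00 ± 0.183 (SD, n = 3 each), a difference of 3.79 (SE 0.094, 95% interval 3.57 to 4.01) or 13.8-fold. By size this was rank 3 of the rises among all genes.

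HTN1 was read at 7.89, 7.61 and 7.22 in S22A-progerin, against 3.79, 3.58 and 4.04 in wt-progerin. The groups were 3.18 apart, though the S22A-progerin arrays spread over 0.665, the widest of the 6 genes, with replicate 3 the lowest. HTN1 averaged 7.57 ± 0.334 in S22A-progerin and 3.80 ± 0.227 in wt-progerin (SD, n = 3 each), a difference of 3.77 (SE 0.181, 95% interval 3.34 to 4.19) or 13.6-fold. Without S22A-progerin replicate 3 the difference was 3.94. No probe set was named HTN3, and whether the HTN1 probe set also reads HTN3 transcripts was not tested, so the reading may belong to either histatin gene.

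TMEM156 had 6.89, 6.73 and 6.94 in S22A-progerin, against 4.24, 4.22 and 4.15 in wt-progerin. Both groups were tight and lay 2.48 apart. TMEM156 was thus 6.28-fold higher, by 2.65 (SE 0.071, 95% interval 2.48 to 2.82).

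The blood cell genes EVI2B and SLAMF7 had nearly the same difference from unlike levels. EVI2B was read at 6.26, 6.30 and 6.44 in S22A-progerin, against 3.76, 3.90 and 4.21 in wt-progerin, a difference of 2.37 (SE 0.118, 95% interval 2.10 to 2.65) or 5.18-fold. SLAMF7 was read at 9.58, 9.45 and 9.49 in S22A-progerin, against 7.07, 7.18 and 7.17 in wt-progerin, a difference of 2.37 (SE 0.062, 95% interval 2.22 to 2.51) or 5.16-fold. No array of one group reached the other in either gene, and the SLAMF7 arrays lay within 0.13 of each other in S22A-progerin and within 0.11 in wt-progerin.

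AADAC, the esterase gene, had the smallest difference of the 6. Its values were 5.70, 5.47 and 5.81 in S22A-progerin, against 4.50, 4.63 and 4.48 in wt-progerin. The groups lay 0.844 apart, and AADAC was 2.18-fold higher, by 1.12 (SE 0.094, 95% interval 0.90 to 1.34), rank 129 of the rises.

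The place of each gene among all tested genes on an array gives its level in rough terms, since probe sets differ in how brightly they read. In wt-progerin 5 of the 6 genes were among the 3721 dimmest: HTN1 at percentile 4.57, EVI2B at 5.34, TMEM156 at 6.56, AADAC at 8.76 and MYCT1 at 13.1. SLAMF7 was the exception, at percentile 50.8, so a rise from low signal describes the other 5 and not SLAMF7. In S22A-progerin MYCT1 lay at percentile 78.3 and SLAMF7 at 87.4, HTN1 at 59.0, TMEM156 at 44.8, EVI2B at 34.0 and AADAC at 21.6. AADAC was low in both groups. Array by array, MYCT1 kept within 78.3 to 78.5 in S22A-progerin and 11.1 to 14.3 in wt-progerin, while HTN1 ranged over 52.4 to 63.7 in S22A-progerin and 3.79 to 5.75 in wt-progerin. No detection call was used, so whether a dim gene was transcribed at all cannot be told from its reading, and each fold is that of the readings.

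**Figure D2:**
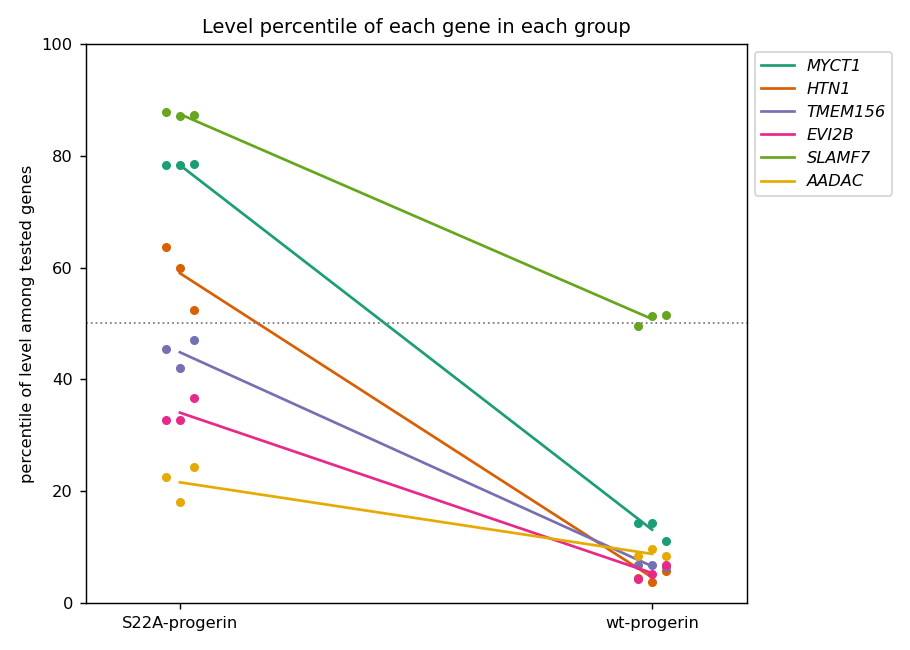
Percentile of each gene's level among the 14884 tested genes, S22A-progerin on the left and wt-progerin on the right; points are the arrays and lines join the percentiles of the group means. In wt-progerin 5 genes lie between 4.57 and 13.1 and SLAMF7 at 50.8, and in S22A-progerin the 6 spread from 21.6 to 87.4.

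Replicates of a group differed little beside these gaps. The median pooled SD of the 6 genes was 0.132, against 0.0924 over all genes. No array was high or low for all 6 genes at once. S22A-progerin replicate 1 was above its group mean in 5 of them, replicate 2 in 1 and replicate 3 in 4. Within wt-progerin, replicate 3 was the highest for HTN1 and EVI2B and the lowest for MYCT1, TMEM156 and AADAC.

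By wt-progerin level, 46 of the 3721 dimmest genes were at least 2-fold higher in S22A-progerin and 2 at least 2-fold lower. In the 3 brighter sets of 3721 genes, from dim to bright, those counts were 49 and 6, 44 and 28, and 14 and 40, so such rises were about as many in both middle sets as among the dimmest. Of the 28 genes at least 4-fold higher, 20 lay under the median level in wt-progerin, and 4 of those 20 are MYCT1, HTN1, TMEM156 and EVI2B. The other 16 comprise 13 with roles or symbols given here and 3 with LINC or MIR symbols. The largest rise of all 14884 genes was 1 of those 3, LINC00520, a long noncoding RNA gene, with 9.42, 9.40 and 9.12 in S22A-progerin, against 5.39, 5.14 and 5.04 in wt-progerin, a difference of 4.13 or 17.5-fold. Of the 13, ESM1 is a secreted product of endothelium, CXCL8 and CCL20 are chemokines, SAA1 is an acute phase protein and MMP1 is interstitial collagenase. LY96 is the partner of Toll-like receptor 4, SP140 a chromatin reader of leukocytes, GPR65 a proton-sensing receptor of lymphocytes and PRR9 a gene of the epidermal cluster. The noncoding RNAs UCA1 and RDUR, the pseudogene NBEAP1 and TRIM49B, of a family of near-identical copies, completed the 13. The largest of the 13 differences was 3.85 in ESM1 and the smallest 2.003 in MMP1.

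**Figure D3:**
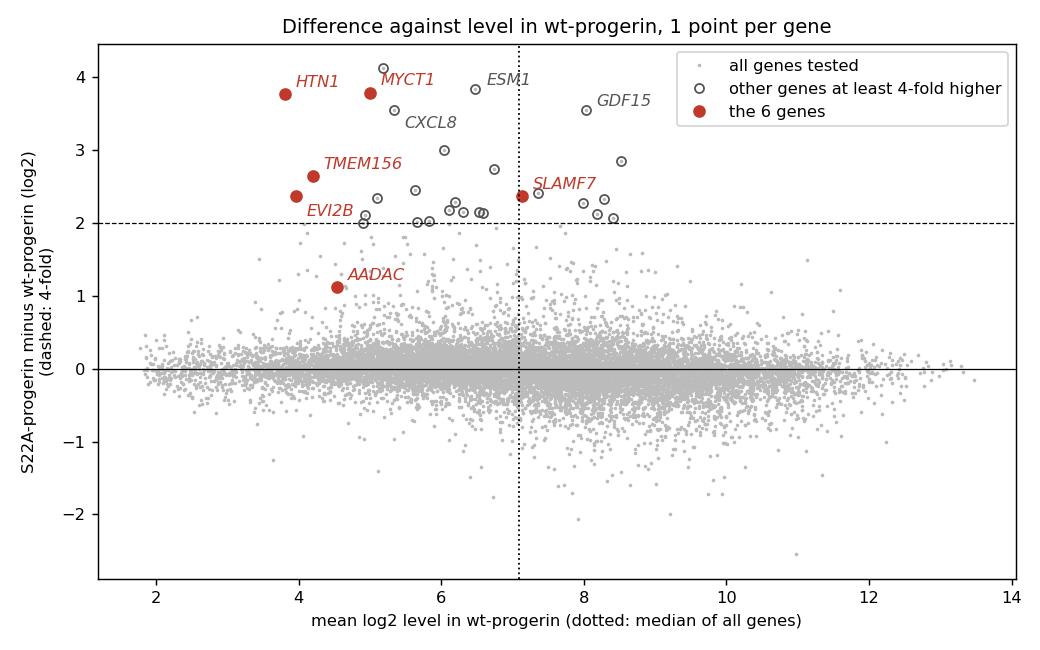
Difference between S22A-progerin and wt-progerin on the log2 scale against the mean level in wt-progerin, 1 point per gene; red points are the 6 genes and open circles the other genes at least 4-fold higher. MYCT1, HTN1, TMEM156 and EVI2B lie at the upper left, SLAMF7 beside the median line and AADAC below the 4-fold line.

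The genes most like each of the 6 were found by the root mean square distance over the 6 arrays, with each gene set to its own wt-progerin mean. MYCT1 was closest to ESM1 (0.100 on the log2 scale) and GDF15 (0.186), and HTN1 to CXCL8 (0.231) and ESM1 (0.246). TMEM156 was closest to UCA1 (0.128) and CCL20 (0.159). EVI2B was closest to RDUR (0.144) and to IL24 (0.181), a cytokine gene. SLAMF7 was closest to RDUR (0.0648) and LPXN (0.0732), which encodes leupaxin, an adhesion adaptor of leukocytes. AADAC lay by IL7 (0.0779), a lymphocyte growth factor, and ARHGEF28 (0.0817). The distance mostly follows the size of the difference between the groups. Among the 6 themselves the closest pair was SLAMF7 and EVI2B, at 0.135.

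Genes next to the 6 on the chromosome were examined to see whether the higher readings extended to their surroundings. The 3 nearest measured genes on either side gave 36 neighbours. Of these, 7 (19.4%) rose and 2 (5.6%) fell at a limma adjusted p under 0.05, against 10.8% and 14.6% of all genes. Their median difference was 0.10, and 3 of them, VIP, EVI2A and AADACP1, changed at least 2-fold, all upward. Each of those 3 was the nearest measured gene on one side of one of the 6.

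EVI2A, the neighbour of EVI2B within NF1, was read at 5.995, 5.89 and 5.96 in S22A-progerin, against 4.65, 4.23 and 4.66 in wt-progerin. It rose by 1.44 (SE 0.118, adjusted p = 2.43e-04, limma), or 2.71-fold. The other nested gene, OMG, a myelin glycoprotein gene, averaged 4.40 in S22A-progerin and 4.20 in wt-progerin and did not pass (limma adjusted p = 0.519), though without S22A-progerin replicate 1 it did, at 0.45 and adjusted p = 0.0162. NF1 itself, the host gene, averaged 10.35 and 10.47 and did not pass (limma adjusted p = 0.262). RAB11FIP4, an endosome adaptor gene next along, fell by 0.34 on the log2 scale (limma adjusted p = 0.00439).

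AADACP1, a transcribed pseudogene of the AADAC family, rose more than AADAC was higher. Its values were 5.85, 5.72 and 5.70 in S22A-progerin, against 3.98, 3.92 and 4.19 in wt-progerin, a rise of 1.73 (SE 0.085, adjusted p = 3.51e-05, limma) or 3.32-fold. As related sequences, AADAC and AADACP1 may share probe signal, which was not tested. AADACL2, the next paralogue, had a difference of 0.15 and did not pass (limma adjusted p = 0.461). SUCNR1, the succinate receptor gene on the other side, had 0.26 and did not pass (limma adjusted p = 0.185), although it did without wt-progerin replicate 2, at 0.41 and adjusted p = 0.0093.

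VIP, which encodes vasoactive intestinal peptide and lies next to MYCT1, had 6.61, 6.64 and 6.43 in S22A-progerin, against 5.35, 5.31 and 5.55 in wt-progerin. It rose 2.23-fold, by 1.15 (SE 0.088, adjusted p = 1.79e-04, limma). On the other side ESR1, the oestrogen receptor gene, had a difference of 0.15 and did not pass (limma adjusted p = 0.448). FBXO5, an inhibitor of the anaphase-promoting complex, fell by 0.87 on the log2 scale (limma adjusted p = 0.00114).

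Around HTN1 0 of 6 measured neighbours passed in limma, with 1, lower, at an unadjusted p under 0.05, where 16% of all genes were higher and 20.7% lower. Their differences ran from -0.36 to 0.09. STATH, the gene of salivary statherin and the nearest measured one on that side, averaged 3.13 in S22A-progerin and 3.49 in wt-progerin (limma adjusted p = 0.0561). It passed as lower with median centring (adjusted p = 0.0319), with the replicate number as a block (0.0217) and without S22A-progerin replicate 3 (0.0093). PRR27, on the other side, averaged 4.48 and 4.38 and did not pass (limma adjusted p = 0.305). The casein genes CSN1S1, CSN2 and CSN3 had differences of 0.01, 0.05 and -0.10.

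Near TMEM156 3 of 6 neighbours rose, by small amounts. TLR1, a Toll-like receptor gene, rose by 0.65 (SE 0.060, adjusted p = 4.02e-04, limma), TLR6, another, by 0.30 and KLHL5, a ubiquitin ligase adaptor gene, by 0.21. TLR6 lost its call with median centring (adjusted p = 0.0618) or when any of 4 single arrays was left out (0.0547 to 0.102), and KLHL5 with the replicate block (0.0722) or without any one wt-progerin array (0.0571 to 0.0769). Beside SLAMF7, LY9, a SLAM family gene, rose by 0.40 (SE 0.073, adjusted p = 0.00722, limma). CD48, on its other side, had 0.29 and did not pass (limma adjusted p = 0.379), though it did without S22A-progerin replicate 3, at 0.54 and adjusted p = 0.0355.

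**Figure D4:**
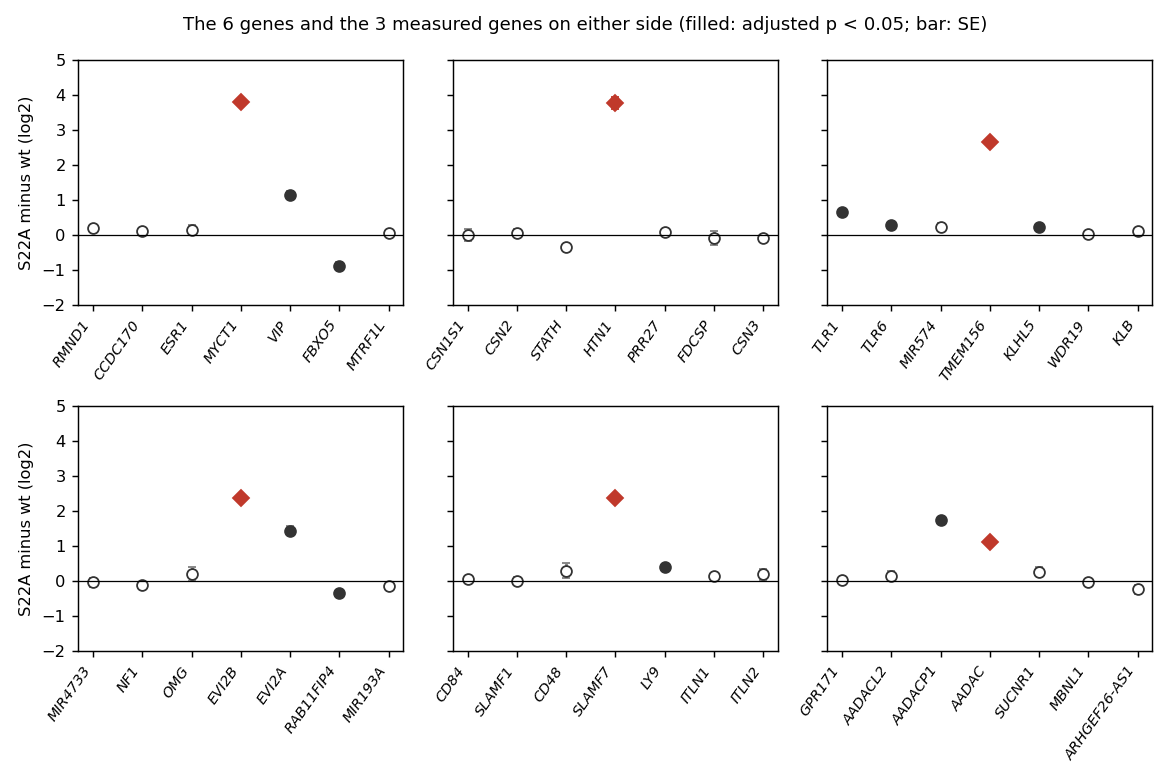
Difference between S22A-progerin and wt-progerin on the log2 scale for each of the 6 genes (red) and the 3 measured genes on either side in chromosome order, not to scale along the chromosome; bars are the SE and filled points passed at an adjusted p under 0.05. VIP, EVI2A and AADACP1 lie 2-fold or more above 0, and the neighbours of HTN1 lie close to 0.

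Most genes of the tissues and families from which the 6 are known did not pass. The 9 lists held 179 genes, of which 119 were measured, so they are not full panels. In the liver and intestine list 14 of 30 were measured. Of the 119 measured genes, 11 (9.24%) rose and 6 (5.04%) fell, against 10.8% and 14.6% of all genes. Without S22A-progerin replicate 3, 18 rose. Counts in brackets for the lists are at an unadjusted p under 0.05, to be read against 16% and 20.7% of all genes. The osteoblast list, used above to check the label, is among the 9, with 1 rise and 3 falls.

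Of 21 endothelial and vascular progenitor genes, the setting of MYCT1, 1 rose and none fell in limma, with a median of 0.05 (2 up and 2 down at an unadjusted p under 0.05). The rise was CLDN5, a tight junction gene, by 0.29 (SE 0.049, limma adjusted p = 0.00555). The members ranged from EMCN at percentile 5.21 in S22A-progerin and 5.45 in wt-progerin to ERG at 55.6 and 56.7, with PECAM1 at 15.1 and 15.9, KDR at 21.0 and 20.8 and SOX17 at 48.9 and 48.3. The summed linear level of the list was 1630 to 1720 in S22A-progerin and 1582 to 1722 in wt-progerin. SOX18 (-0.20), SHE (0.22) and MMRN2 (-0.26) did not pass, though SHE did without S22A-progerin replicate 3 (0.31, adjusted p = 0.011) and MMRN2 without replicate 1 of that group (-0.34, adjusted p = 0.0389).

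Of 22 salivary and secreted phosphoprotein genes, the setting of HTN1, 1 rose and 2 fell, with a median of -0.02 (2 up and 4 down at an unadjusted p under 0.05). AMTN, an enamel protein gene, rose by 0.90 (SE 0.080, 1.86-fold, limma adjusted p = 3.38e-04). SMR3A (-0.41) and SMR3B (-0.37), a pair of salivary peptide genes, fell, and lost their calls when any of 5 single arrays was left out, at adjusted p up to 0.111 and 0.12. SMR3A also lost it with the replicate block (0.0644) and SMR3B with repeated quantile normalization (0.0641) and the trend and robust prior (0.0801). ENAM, for enamelin, had 0.21 and did not pass, though it did without S22A-progerin replicate 3 (limma adjusted p = 0.0188) and with averaged probe sets (0.0498). The summed level was 1052 to 1171 in S22A-progerin and 1042 to 1116 in wt-progerin.

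Of 19 pan-leukocyte genes, the setting of EVI2B and the list TMEM156 was set beside, 3 rose and none fell in limma, with a median of 0.17 (6 up and 0 down at an unadjusted p under 0.05). LAPTM5, a lysosomal protein gene of blood cells, was read at 8.37, 8.004 and 8.39 in S22A-progerin, against 7.15, 7.09 and 6.89 in wt-progerin, a rise of 1.21 (SE 0.121, limma adjusted p = 5.21e-04). ARHGDIB, a gene of blood cells, rose by 1.22 (SE 0.189) and LCP1, which encodes the actin bundler L-plastin, by 0.83 (SE 0.085). HCLS1, a haematopoietic cortactin relative, had 0.29 and did not pass, though it did without S22A-progerin replicate 1 (adjusted p = 0.0358). Without S22A-progerin replicate 3, 7 members rose, with CD53, CD52, CD48 and TYROBP added. The list's summed level was 1828 to 1922 in S22A-progerin and 1368 to 1440 in wt-progerin, so the groups did not overlap. LAPTM5, ARHGDIB and LCP1 made up 716 to 820 of it in S22A-progerin and 371 to 391 in wt-progerin. The other 16 genes summed to 1027 to 1147 in S22A-progerin and 993 to 1049 in wt-progerin, which overlap. CD53, LAPTM5 and PTPRC had been set as leukocyte markers, and PTPRC was not among the 19 measured genes. LAPTM5, which rose, lay at percentile 70.6 in S22A-progerin and 49.1 in wt-progerin. CD53 averaged 5.997 in S22A-progerin and 5.60 in wt-progerin, at percentiles 27.4 and 21.4, and did not pass with all arrays (limma adjusted p = 0.0938). A part of other cells in the EVI2B, TMEM156 and SLAMF7 readings was not tested, and in bulk RNA the number of cells of a type and the amount of RNA per cell cannot be told apart.

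Of 14 natural killer and plasma cell genes, the setting of SLAMF7, none rose and 1 fell in limma, and the median was 0.06 (1 up and 2 down at an unadjusted p under 0.05). NCAM1, an adhesion molecule gene shared with nerve and muscle, fell by 0.86 on the log2 scale (SE 0.072, limma adjusted p = 2.57e-04). SDC1, syndecan-1 of plasma cells, had 0.16, IRF4, a plasma cell transcription factor gene, -0.21 and GNLY, granulysin, 0.11, and the 3 did not pass. SDC1 did pass as higher once dim genes were removed (limma adjusted p = 0.0157) and with repeated quantile normalization (0.0431). It also did with the trend and robust prior (0.0292) and without S22A-progerin replicate 3 (0.0434). IRF4 passed as lower with median centring (0.0473), with repeated quantile normalization (0.0477) and without S22A-progerin replicate 3 (0.0392). NKG7, a defining natural killer gene, averaged 7.09 in S22A-progerin and 7.01 in wt-progerin. The summed level was 1490 to 1518 in S22A-progerin and 1644 to 1655 in wt-progerin. NCAM1 carried that direction: the other 13 genes summed to 1207 to 1271 in S22A-progerin and 1148 to 1182 in wt-progerin.

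Of 9 SLAM family and adaptor genes, 2 rose and none fell in limma, with a median of 0.29 (4 up and 0 down at an unadjusted p under 0.05). Besides LY9, SLAMF9 rose by 0.41 (SE 0.104, limma adjusted p = 0.0271), a call that ended without any one of 5 arrays (adjusted p = 0.0596 to 0.0847). SLAMF8 (0.33) and SH2D1B (0.40), an adaptor gene for SLAMF7 signalling, did not pass, but both did with the replicate number as a block (adjusted p = 0.0481 and 0.0109), which gave 4 rises. SLAMF1 and CD84, both close to SLAMF7 in the genome, had differences of 0.00252 and 0.06. The summed level was 376 to 449 in S22A-progerin and 327 to 340 in wt-progerin. Without LY9 and SLAMF9 the other 7 genes summed to 231 to 268 in S22A-progerin and 206 to 216 in wt-progerin, which do not overlap either.

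Of 14 liver and intestine genes, the setting of AADAC, 1 rose and none fell in limma, with a median of 0.04 (1 up and 0 down at an unadjusted p under 0.05). The rise was AHSG, a liver plasma protein gene, by 0.37 (SE 0.110, limma adjusted p = 0.0475), and it lost its call under 8 alternatives, including both other scalings (adjusted p = 0.0656 and 0.0597). ALB, albumin, averaged 5.08 in S22A-progerin and 5.06 in wt-progerin, and TTR, transthyretin, 6.46 and 6.36. Of 10 carboxylesterase and AADAC family genes 1 rose and none fell in limma, with 1 up and 1 down at an unadjusted p under 0.05. It was NCEH1, a cholesteryl ester hydrolase and a paralogue of AADAC, by 0.42 (SE 0.048, limma adjusted p = 9.79e-04). NCEH1 had readings of 9.37, 9.38 and 9.38 in S22A-progerin, against 8.98, 8.95 and 8.94 in wt-progerin. The AADAC family genes AADACL2, AADACL3 and AADACL4 did not pass (limma adjusted p = 0.43 to 0.57).

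**Figure D5:**
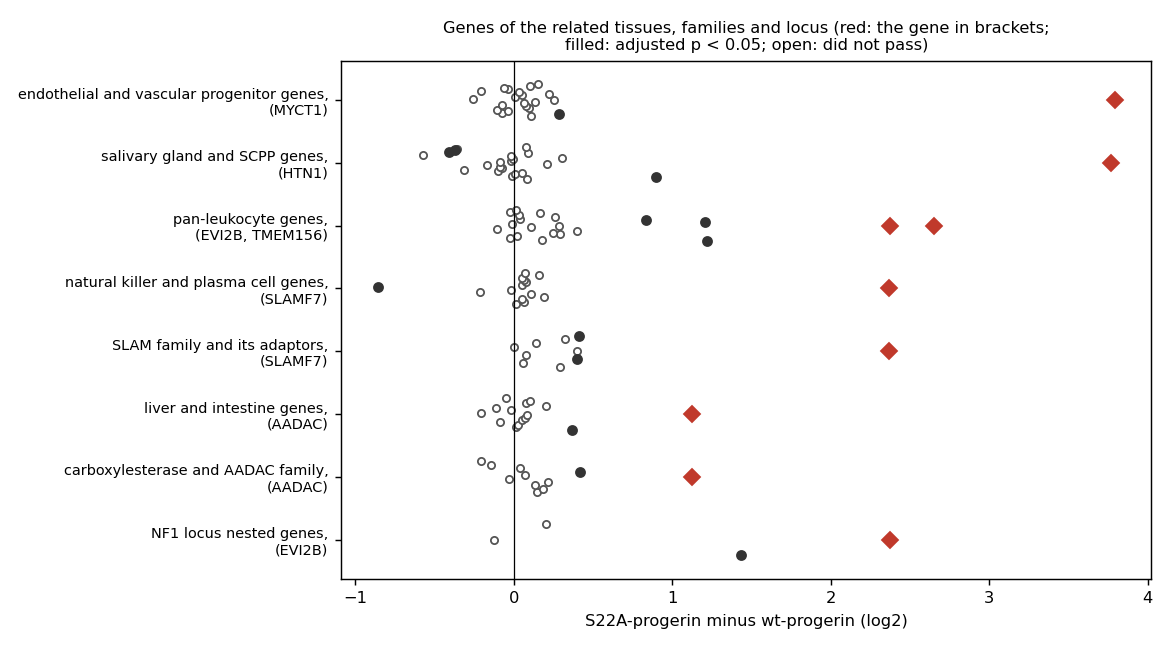
Difference between S22A-progerin and wt-progerin on the log2 scale for the measured genes of 8 lists (1 row each; SCPP stands for secretory calcium-binding phosphoprotein), filled where they passed at an adjusted p under 0.05, with the gene of interest in red. In each row the red points lie above the other genes, and LAPTM5, ARHGDIB, LCP1, AMTN and EVI2A are the rises over 0.8.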

How the data were processed

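The submitters' processing notes name RMA and Affymetrix Expression Console as the tools behind the deposited log2 expression values, with no version. RMA subtracts background, makes the arrays' distributions alike and summarises probes into probe sets. The medians over all probe sets were 6.05, 6.082 and 6.089 in S22A-progerin, against 6.044, 6.037 and 6.038 in wt-progerin. A genome build is not given in the sources used here. Every array had its own column, matched to its sample and group by the labels. Of 53617 probe sets, 16098 had 1 gene symbol in the platform annotation, 0 had several and 37519 none here. For the 779 genes with several, the brightest was used, and each of the 6 genes had 1. Values ran from 1.27 to 14.0, and the number of arrays limits precision.

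The 14884 genes were fitted with limma (version 3.58.1, R 4.3.3; lmFit, eBayes, 2 groups, two-sided) and p-values adjusted by Benjamini-Hochberg over all of them, called at 0.05. On simulated arrays of 14884 genes for this comparison, 200 of them changed, 14 of 50 changes of 0.3 on the log2 scale were recovered. Of changes of 0.6, 40 of 50 were recovered, and of changes of 1, 47 of 50, and 7 of 157 calls were false. The data gave 3777 calls, and the adjusted threshold is stricter where fewer genes change. These shares therefore do not give the recovery in the data. The 6 genes, the lists and the motifs were chosen with earlier results of these data known. Named genes are the nearest measured neighbours, up to 4 members per list with the smallest p, rises of at least 4-fold under the wt-progerin median, the 2 closest profiles, and LMNA; others were named after their values were seen. RefSeq order gave neighbours. Genes of the lists with no named probe set were not analysed here, and a planned set of olfactory receptor genes was not used here because 1 had a probe set. Alternatives were another quantile normalization, median centring, leaving out the dimmer 50% of genes, averaging probe sets, a trend and robust prior, the replicate number as a block and leaving out each array.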

Additional observations from a re-analysis of the deposited data

How the results depend on the processing

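No reported difference of the 6 genes changed sign under any alternative that tested them. Leaving out 1 array at a time gave 3.69 to 3.85 for MYCT1, 3.61 to 3.94 for HTN1, 2.61 to 2.71 for TMEM156, 2.27 to 2.50 for EVI2B, 2.33 to 2.40 for SLAMF7 and 1.05 to 1.22 for AADAC. Leaving out the dimmer 50% of genes removed all of them but SLAMF7, which made the median difference 2.37, and left 5 list genes and 3 neighbours higher and 1 neighbour lower, since fewer genes were tested. With 1 array left out, 9 to 18 list genes were higher and 4 to 7 lower, and 5 to 9 neighbours higher. All genes higher then numbered 1126 to 1553, against 1601 with all arrays. Median centring gave 1320 genes higher and 2457 lower, against 1601 and 2176 without it. The alternatives for the neighbours were chosen after seeing the data.

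With the replicate number as a block, 1285 genes were higher and 1705 lower, 13 list genes higher and 6 lower, and 6 neighbours higher. Deviations of same-numbered arrays correlated at -0.0195, -0.0549 and -0.00558, so these arrays shared no clear deviation. Whether same-numbered samples were handled together is not stated. Each of the 6 genes had 1 probe set, so averaging changed none of their values. Low readings had no detection call. In the simulation, with 200 genes changed, 14 of 50 changes of 0.3 on the log2 scale were recovered, which does not give the share for these data.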
